A study of Mus musculus with 36 samples.

Results

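Hemoglobin and erythroid transcripts were measured in the livers of 36 male mice with 9 microarray probes, out of 21781 probes in the authors' table of expressed spots. The members were 7 genes chosen by name: the globin genes Hba-a1, Hbb-b1, Hbb-b2 and Hbb-bt, the heme synthesis enzyme Alas2, the anion exchanger Slc4a1 and the glycolytic enzyme Bpgm. A probe was a member when its gene name in the array files, or the current symbol of its accession, was one of these names. All 9 probes found were present in the table, and they represent 5 of the 7 names when Hbb-bt is counted under Hbb-b1: the 4 probes named Hbb-b1 in the files carry the current symbol Hbb-bt. Hbb-b2 had no probe of its own, and 2 of the 4 Hbb-b1 probes also list an Hbb-b2 accession. Adult beta globin is therefore described probe by probe, with no separation of its gene copies. The genes were proposed with earlier results of these mice known, by no stated threshold on a value, and the adjusted p-values below are not independent evidence of their direction.

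Hemoglobin carries oxygen in red blood cells as a tetramer of alpha chains, from Hba-a1 and Hba-a2, and beta chains, from the Hbb genes, each holding a heme group. Red cells that have just left the bone marrow still carry globin mRNA, and liver tissue holds blood in its sinusoids, so globin mRNA is commonly found in RNA from whole liver. Alas2 performs the first step of heme synthesis in red cell precursors, Slc4a1 (band 3) exchanges bicarbonate for chloride across the red cell membrane, and Bpgm makes 2,3-bisphosphoglycerate, which lowers the oxygen affinity of hemoglobin.

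Adult males received a mild-high-fat diet with 30 energy % fat, and each group held 12 mice. Their strain is C57BL/6J in the sample labels and C57BL/6JOlaHsd, another substrain, in the methods. The baseline group was killed at the end of the adaptation phase, which lasted 3 weeks according to the sample descriptions, at 0 weeks of intervention. The control group (HF) continued on this diet for 12 weeks, and the quercetin group (HF-Q) received it for 12 weeks with 0.33% (w/w) of the flavonol quercetin. All mice were fasted for a minimum of 2 h before anaesthesia. Age, time on the diet and any difference in the day of tissue collection separated the baseline group from both other groups and cannot be told apart. Each array held the Cy5-labelled cRNA of a single liver and a Cy3-labelled pool of all livers. The livers were whole tissue, in which fewer cells of a type and less RNA per cell cannot be told apart. Values are log2 values of Cy5 normalized against Cy3, and because every probe has its own offset, they are compared between mice and never between probes.

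The arrays were of similar brightness except for 1. The probes well above background in Cy5 made up 56.4 to 67.4% of the probes on 35 arrays and 96.7% on the array of quercetin replicate 2. Without that mouse, the numbers of member probes called in the comparisons below were the same. All 9 member probes were well above background on all 36 arrays and none was saturated. Slc4a1 was the dimmest, with a mean Cy5 signal of 2.59 times background in the baseline, 3.28 times in the control and 3.69 times in the quercetin group. The last mean includes the bright array of quercetin replicate 2. The median Cy5 signals of Slc4a1 were 131, 154 and 165 units in the same order. The table holds signals without background subtraction, which compresses differences of dim probes such as this one.

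The globin transcripts and Alas2, all made by red cell precursors, differed from baseline with opposite signs. The Alas2 difference was called only in quercetin against baseline, and not under every processing. The sequences upstream of 3 member genes are shown as a description, and no link of their motifs to expression was tested. RefSeq promoters (build GRCm38.p6) were found for 4 of the 7 gene names (Hba-a1, Hbb-bt, Alas2 and Bpgm). The 250 bases before the start site were searched on both strands for GATA motifs (AGATAA and its variants with T as the first or G as the last base), for CACCC and for CCAAT, all of which are known from promoters of erythroid genes. Capitals mark the matches, and none of the motifs overlapped another:
Hba-a1, chr11:32283422-32283671, plus strand: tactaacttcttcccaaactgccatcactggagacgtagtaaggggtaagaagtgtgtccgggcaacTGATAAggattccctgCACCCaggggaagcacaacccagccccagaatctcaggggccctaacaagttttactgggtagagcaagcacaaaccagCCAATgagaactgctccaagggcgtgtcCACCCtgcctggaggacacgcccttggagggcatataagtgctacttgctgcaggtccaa
Hbb-bt, chr7:103813924-103814173, minus strand: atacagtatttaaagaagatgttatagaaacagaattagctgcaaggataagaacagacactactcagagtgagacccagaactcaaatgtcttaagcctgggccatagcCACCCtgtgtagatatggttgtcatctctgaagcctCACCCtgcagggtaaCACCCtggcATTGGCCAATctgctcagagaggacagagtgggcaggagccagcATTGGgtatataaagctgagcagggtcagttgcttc
Alas2, chrX:150547167-150547416, plus strand: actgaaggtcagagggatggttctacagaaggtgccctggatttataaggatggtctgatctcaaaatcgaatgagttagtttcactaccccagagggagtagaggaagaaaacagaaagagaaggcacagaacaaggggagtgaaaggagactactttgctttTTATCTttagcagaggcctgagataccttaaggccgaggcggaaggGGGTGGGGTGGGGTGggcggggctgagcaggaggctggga
The Hba-a1 sequence held 1 GATA motif, 2 CACCC motifs and 1 CCAAT motif. The Hbb-bt sequence held no GATA motif, 3 CACCC motifs and 3 CCAAT motifs, and Alas2 held 1 GATA motif, 3 CACCC motifs and no CCAAT motif. Bpgm held neither GATA nor CACCC and had 3 CCAAT motifs. A GATA match was found in 26.5% of all 32851 promoter sequences of this length, a CACCC match in 52% and a CCAAT match in 33.8%, so single matches are common. The upstream sequences of Hba-a1 and Hba-a2 were identical over 247 of 247 bases once shifted by 3 bases. Those of Hbb-bt and Hbb-bs shared 127 of 249 bases at their best ungapped shift, and those of Hba-a1 and Hbb-bt shared 80 of 247. Only shifts of up to 10 bases were tried and no gaps were allowed, so these shares can understate how alike 2 sequences are.

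Alpha globin was higher in both groups at 12 weeks than in the baseline group. The Hba-a1 probe (A_52_P278538, chromosome 11, 32183775 to 32183956 in build mm8, which also lists an Hba-a2 accession) had log2 values from 13.82 to 14.61 in the baseline mice, with a median of 14.37. In control mice it ranged from 14.70 to 16.62 around a median of 15.11, and in quercetin-fed mice from 14.95 to 16.10 around 15.38. No baseline mouse reached the lowest control or quercetin-fed mouse. The means were 14.33 ± 0.21, 15.26 ± 0.59 and 15.54 ± 0.40 (SD, n = 12 each).

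The difference of control against baseline was 0.93 (SE 0.17, limma adjusted p = 0.000308), a 1.91-fold higher level. That of quercetin against baseline was 1.21 (SE 0.12, limma adjusted p = 4.05e-07), or 2.32-fold. On each of the 9 slides, which held arrays of all groups, control mice exceeded baseline mice, by 0.40 to 2.03. Quercetin-fed mice did so on 9 of 9 slides as well, by 0.71 to 1.72. The scanner signals showed the change in the liver channel: the median Cy5 signal was 19778, 38064 and 48594 units in the baseline, control and quercetin groups, while the Cy3 signal of the pool had medians of 12759, 12148 and 12459 units.

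Beta globin showed the same order of groups on all 4 Hbb-b1 probes. The brightest, A_51_P374476 (chromosome 7, 103687307 to 103687366, mm8), ranged from 14.84 to 15.87 in baseline mice (median 15.47), from 15.95 to 18.09 in control mice (16.33) and from 16.26 to 17.44 in quercetin-fed mice (16.78). Baseline mice again lay below every other mouse. It differed by 1.07 (SE 0.19, adjusted p = 0.000308) in control against baseline and by 1.38 (SE 0.13, adjusted p = 1.70e-07) in quercetin against baseline (limma).

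Probes A_52_P260346 (103687338 to 103687397) and A_52_P213909 (103686419 to 103686478, which also lists Hbb-b2) behaved likewise. Their differences from baseline were 1.02 and 0.87 in the control group and 1.28 and 1.09 in the quercetin group, and neither showed an overlap of the baseline with the other groups. Probe A_51_P374468 (103687624 to 103687683, also listing Hbb-b2) was the exception. Its values overlapped, at 11.49 to 12.85 in baseline, 11.62 to 14.62 in control and 12.53 to 13.90 in quercetin-fed mice, with medians of 12.47, 12.85 and 13.30. Its difference was 0.60 (SE 0.23, limma adjusted p = 0.0618) in control against baseline, which missed the threshold. Without control replicate 1, the lowest control mouse on this probe, it was 0.73 (limma adjusted p = 0.0145), and without control replicate 5 it was 0.65 (limma adjusted p = 0.0469). In quercetin against baseline it was 0.87 (SE 0.15, limma adjusted p = 0.000528). Every Hba-a1 and Hbb-b1 probe was higher in control than in baseline mice on 9 of 9 slides.

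**Figure D1:**
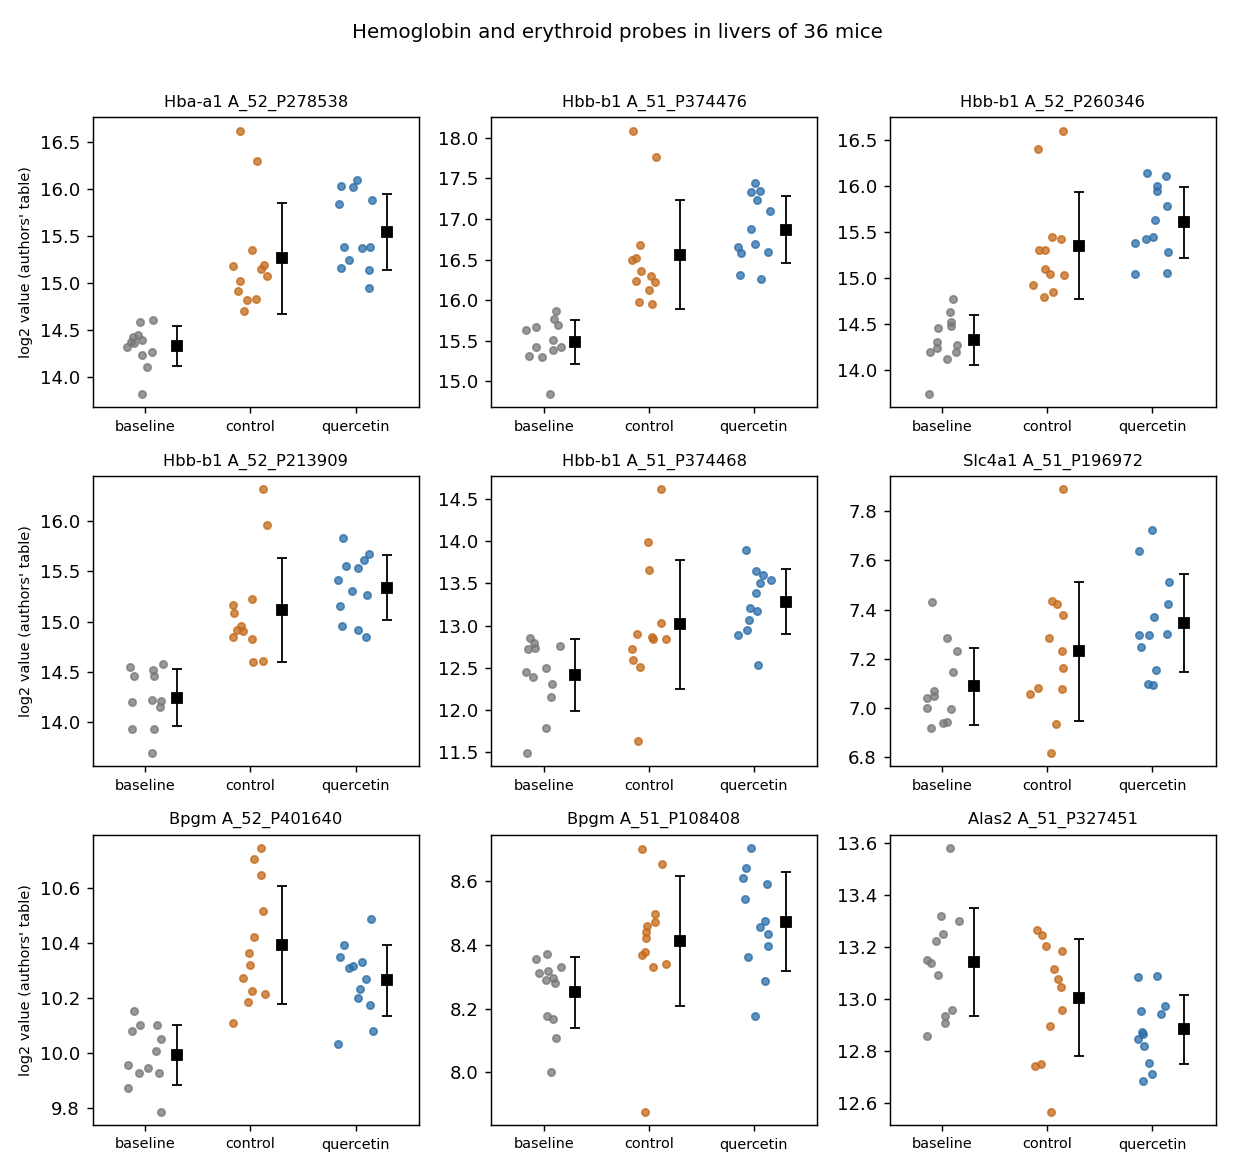
Log2 values of the 9 member probes in each mouse (points), by group, with the group mean and SD beside them (squares and bars, n = 12 each); every panel has its own vertical axis. Hba-a1 and 3 of the 4 Hbb-b1 panels show all baseline mice below all others, with 2 control mice far above the rest, while Alas2 was lowest in the quercetin group.

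Slc4a1 changed less than the globins. Its probe (A_51_P196972, chromosome 11, 102165032 to 102165091, mm8) ranged from 6.92 to 7.43 in baseline mice (median 7.04), from 6.82 to 7.89 in control mice (7.20) and from 7.09 to 7.72 in quercetin-fed mice (7.30). The 3 groups overlapped. The difference was 0.14 (SE 0.09, limma adjusted p = 0.25) in control against baseline and 0.26 (SE 0.07, limma adjusted p = 0.0199) in quercetin against baseline, with 12 of 12 quercetin-fed mice above the baseline median.

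Bpgm, read by 2 probes, was also higher at 12 weeks. Probe A_52_P401640 (chromosome 6, 34434950 to 34435009, mm8) ranged from 9.79 to 10.15 in baseline mice (median 9.98), from 10.11 to 10.75 in control mice (10.34) and from 10.03 to 10.49 in quercetin-fed mice (10.29). Only the lowest mice at 12 weeks reached into the baseline range. It was higher by 0.40 (SE 0.07, limma adjusted p = 0.000209) in control and by 0.27 (SE 0.05, limma adjusted p = 0.00144) in quercetin against baseline. Probe A_51_P108408 (34418070 to 34434449) differed by 0.16 (SE 0.07, limma adjusted p = 0.086) in control against baseline, and by 0.21 (adjusted p = 0.00641) without control replicate 7, its lowest value. In quercetin against baseline it rose by 0.22 (SE 0.06, limma adjusted p = 0.0125). With scanner ratios centred on array medians neither probe passed in that comparison (A_52_P401640 0.30, adjusted p = 0.165; A_51_P108408 0.15, adjusted p = 0.315), and with Cy5 alone A_51_P108408 did not (0.24, adjusted p = 0.128).

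Alas2 went the other way. Its probe (A_51_P327451, chromosome X, 145911166 to 145911225, mm8) ranged from 12.86 to 13.58 in baseline mice (median 13.15), from 12.57 to 13.27 in control mice (13.06) and from 12.69 to 13.09 in quercetin-fed mice (12.87). The groups overlapped, but 12 of 12 quercetin-fed mice lay below the baseline median. The difference was -0.26 (SE 0.07, limma adjusted p = 0.0172) in quercetin against baseline and -0.14 (SE 0.09, limma adjusted p = 0.249) in control against baseline. The first of these lost its call when the scanner ratios were centred on array medians (-0.15, adjusted p = 0.522) and when Cy5 was used alone (-0.23, adjusted p = 0.093).

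Between the quercetin and control groups no member probe passed the threshold, 0 of 9, where 2.36% of all 21781 probes did (limma adjusted p under 0.05). The unadjusted p-values of the members ran from 0.0833 to 0.41 in this comparison. Hba-a1 differed by 0.28 (95% interval -0.09 to 0.65, limma adjusted p = 0.494), and 11 of 12 mice of the quercetin group exceeded the median control mouse. The Hbb-b1 probes differed by 0.22 to 0.31, and the widest of their intervals ran from -0.18 to 0.71. These intervals include differences of over 1.5-fold, so the comparison does not show equal levels. Slc4a1 differed by 0.12 and Alas2 by -0.12. Bpgm differed by -0.13 on A_52_P401640 and by 0.06 on A_51_P108408, whose sign turned under 5 of 12 other settings.

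Against baseline, 5 of 9 member probes were called in the control group, all of them higher, where 21.3% of all probes were called. In the quercetin group 9 of 9 were called, 8 higher and 1 lower, where 11.9% of all probes were called. These 2 comparisons share the baseline mice. Most of the member probes read adult globin: the Hba-a1 probe and the 4 Hbb-b1 probes varied together (r from 0.81 to 0.99). The counts are therefore not counts of independent members. The calls in the control group were Hba-a1, 3 Hbb-b1 probes and Bpgm A_52_P401640, while Slc4a1, Alas2 and Bpgm A_51_P108408 were not called there. The complete separation seen for Hba-a1 and 3 Hbb-b1 probes was rare in the table: 0.202% of probes had every control mouse above every baseline mouse, and 0.129% had every quercetin-fed mouse above every baseline mouse. By size, the difference of A_51_P374476 from baseline ranked 38 of 21781 probes for control and 7 for quercetin-fed mice.

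**Figure D2:**
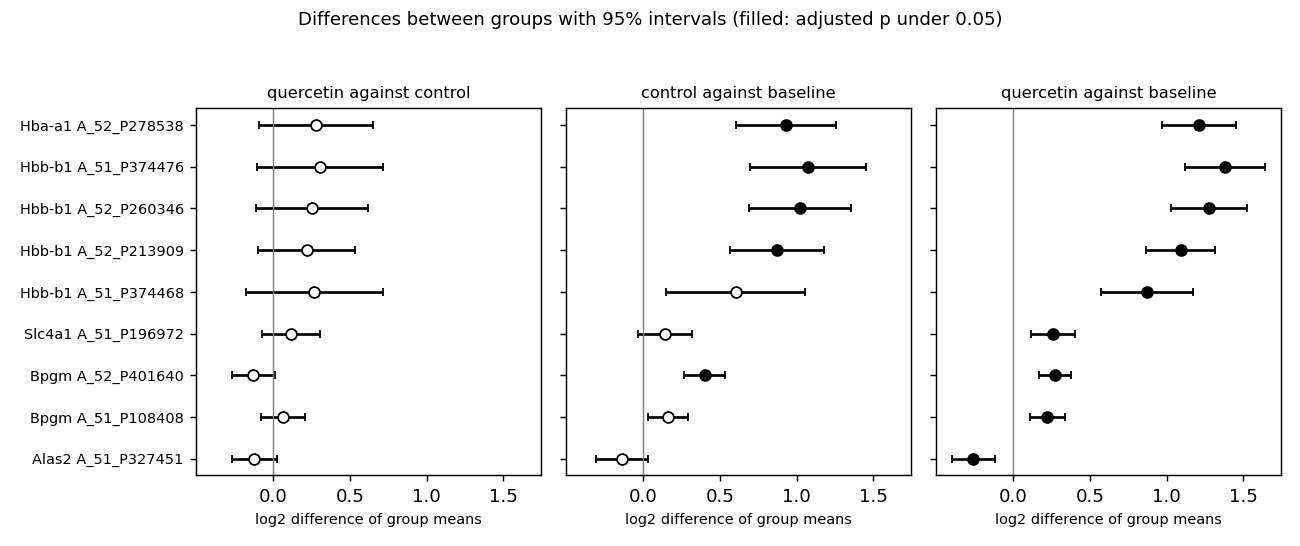
Log2 differences of group means for the 9 member probes in the 3 comparisons, with 95% intervals (bars); filled points passed an adjusted p of 0.05 in limma over 21781 probes. The first panel holds no filled point, the second 5 and the third 9, and Alas2 is the only probe to the left of 0 in the third.

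Set against Hba-a1 on the same array, the beta chain probes moved little relative to alpha globin. The mean log2 difference of A_51_P374476 from Hba-a1 moved by 0.14 among control and 0.17 among quercetin-fed mice from its baseline value, A_52_P260346 by 0.09 and 0.06, and A_52_P213909 by -0.06 and -0.12. Probe A_51_P374468 moved by -0.33 and -0.34. The same quantity moved by -0.79 and -0.95 for Slc4a1, by -0.53 and -0.94 for Bpgm A_52_P401640, and by -1.07 and -1.47 for Alas2. On this relative scale the beta chain probes lay nearer to Hba-a1 than any other member named here, a difference that was not tested. Each of these values is the probe's difference from baseline given above less that of Hba-a1. They restate those differences, and the rise of Hba-a1 itself is part of every value.

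Mice of 1 group differed more in globin than in most transcripts. The pooled SD within groups was 0.43 for Hba-a1, which only 2.88% of probes exceeded, against a median of 0.18 over all probes. The 4 Hbb-b1 probes had SDs from 0.39 to 0.55. Bpgm was close to the median with 0.16 on both probes, as was Alas2 with 0.19, and Slc4a1 had 0.22. From the lowest to the highest of the 36 mice, Hba-a1 spanned 6.95-fold and Hbb-b1 A_51_P374476 spanned 9.48-fold. Control replicates 8 and 12 stood apart: on Hba-a1 they had 16.62 and 16.30, whereas the next control mouse had 15.35. Control replicate 8 ranked first and control replicate 12 second of 36 mice on every Hba-a1, Hba-a2 and Hbb-b1 probe, and baseline replicate 1 ranked 36 on each. Without control replicate 8, the Hba-a1 difference of control against baseline was 0.81 (limma adjusted p = 0.000125).

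Some mice with high globin were also high in other members. Control replicate 8 had the highest control value on 8 of 9 member probes, and baseline replicate 2 the highest baseline value on 7 of 9. Quercetin replicate 10 was highest of its group on 5 of 9 probes. These counts include the globin probes. Beyond those, control replicate 8 was highest on Alas2, Slc4a1 and Bpgm A_51_P108408, but not on Bpgm A_52_P401640. Baseline replicate 2 was highest on Alas2 and Slc4a1 but on neither Bpgm probe. Quercetin replicate 10 was highest on Alas2 and Bpgm A_52_P401640 but not on the others. The same counts over all probes are not given here. To describe how members varied together, each group's mean was subtracted and Pearson's r and Spearman's rho were taken over 36 mice. These are a description, since all probes share the same arrays and the members were chosen with results known.

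The 10 pairs among the Hba-a1 and Hbb-b1 probes had r from 0.81 to 0.99, with a median of 0.925 (rho 0.915). The median was 0.906 within the baseline, 0.983 within the control and 0.904 within the quercetin group, and 0.863 without control replicates 8 and 12. These 10 pairs include pairs of Hbb-b1 probes with each other. Alpha and beta chains, encoded on different chromosomes, also varied together. Hba-a1 had r = 0.956 (rho 0.922) with Hbb-b1 A_51_P374476, 0.945 with A_52_P260346, 0.905 with A_52_P213909 and 0.807 with A_51_P374468. Without control replicates 8 and 12 these were 0.910, 0.897, 0.821 and 0.677. With Hba-a1, Slc4a1 had r = 0.654 (rho 0.555), Bpgm A_52_P401640 had r = 0.561 (rho 0.493) and Bpgm A_51_P108408 had r = 0.442 (rho 0.437). Without control replicates 8 and 12 these fell to 0.481, 0.378 and 0.333. For comparison with the values over all mice, the absolute r with Hba-a1 had a median of 0.118 over the other 21772 probes. Of these, 1% lay above 0.422. The same background without control replicates 8 and 12 is not given here.

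In the authors' values Alas2 had an r of 0.338 with Hba-a1 (rho 0.325) over all mice, below the other members, and 0.193 without control replicates 8 and 12. Its place in this order depended on the processing: with background-corrected scanner ratios Alas2 had 0.446 and Bpgm A_51_P108408 had 0.430, and with Cy5 alone these were 0.397 and 0.199. Within groups the r of Alas2 was 0.59 in baseline, 0.50 in control and -0.15 in quercetin-fed mice. In the same order Slc4a1 had 0.507, 0.793 and 0.449, Bpgm A_52_P401640 had 0.505, 0.536 and 0.667, and Bpgm A_51_P108408 had 0.361, 0.491 and 0.393. Alas2 thus lay below these 3 probes among quercetin-fed mice and above them among baseline mice. The differences between these values were not tested.

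**Figure D3:**
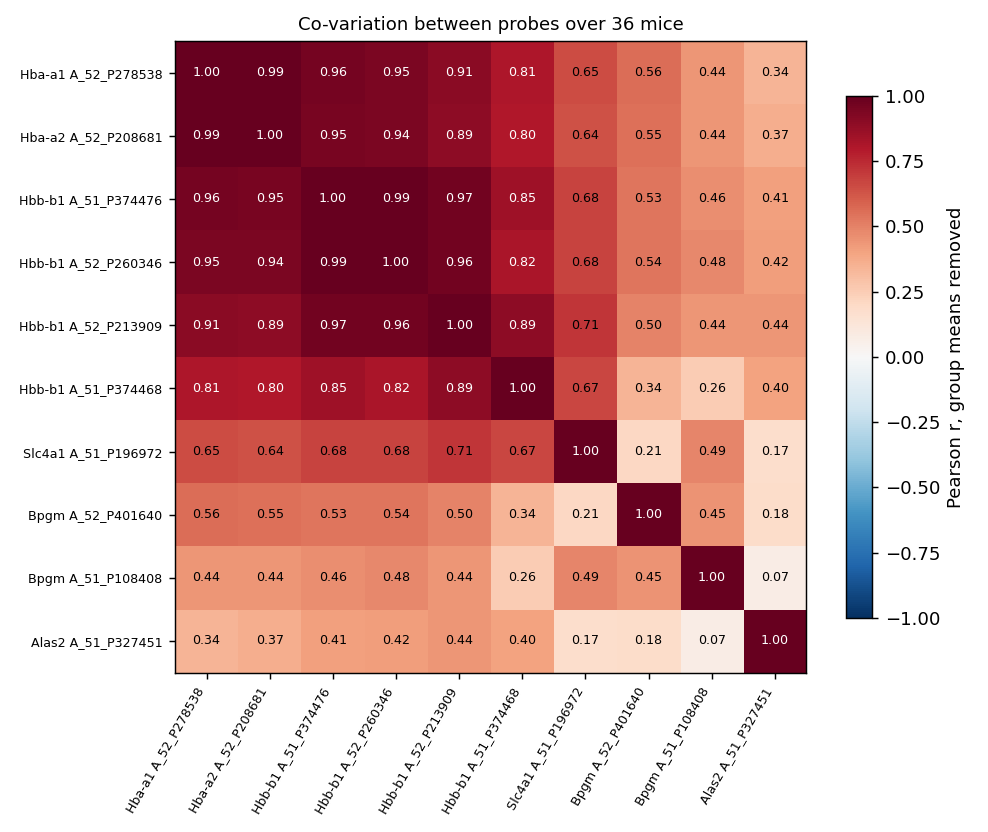
Pearson r between the 9 member probes and the Hba-a2 probe over 36 mice after removal of group means. The globin block holds values of 0.80 and above, Slc4a1 follows with 0.64 to 0.71 against the globins, and Alas2 has 0.34 to 0.44.

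**Figure D4:**
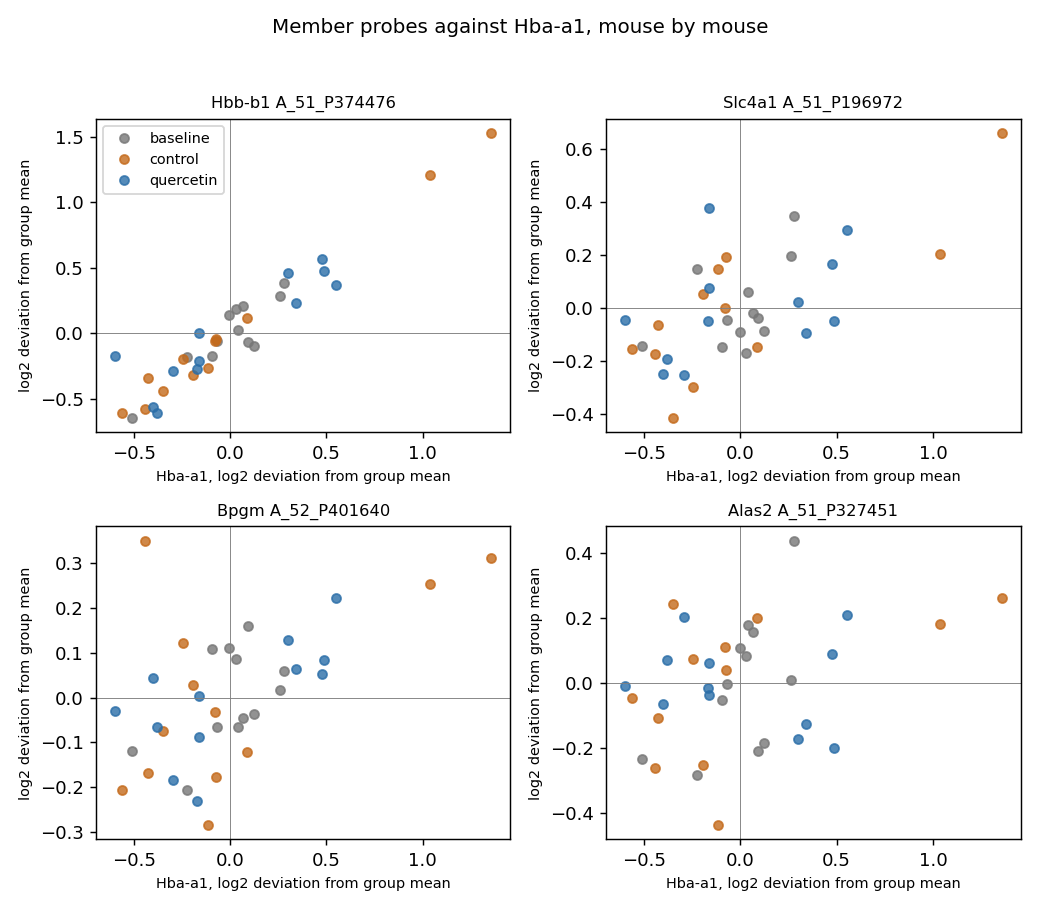
Deviation of each mouse from its group mean (log2) for 4 member probes (vertical axes, each with its own scale) against Hba-a1 (horizontal axis), coloured by group. Hbb-b1 follows Hba-a1 mouse by mouse, Slc4a1 and Bpgm do so loosely, and the 2 control mice at the far right are replicates 8 and 12.

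Other genes of the red cell were taken from 5 lists with 59 genes: heme synthesis, red cell membrane and skeleton, erythroid transcription factors and receptors, late erythroid genes, and embryonic globins. Of these, 34 genes had a probe in the authors' table, and only 5 of the 17 membrane genes did. Rhag and Ahsp, which are characteristic of red cells and their precursors, had none there. In quercetin against control 0 of 34 were called by limma. In control against baseline 3 were higher and 5 lower, where 10.9% of all probes were called higher and 10.4% lower, and in quercetin against baseline 6 were higher and 3 lower, where these shares were 6.62% and 5.3%. The median difference of the 34 genes was 0.01 and 0.07 against baseline, and over all probes it was -0.00473 and 0.01. These medians lay close to those of all probes, unlike the globins.

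Among the called genes, Hba-a2, the other adult alpha globin gene, whose transcript the Hba-a1 probe also lists, was higher by 0.96 in control and 1.24 in quercetin against baseline (limma adjusted p = 0.000317 and 3.99e-07). The probe of Hbb-y, an embryonic beta-like globin, was dim, with a mean Cy5 signal of 2.63 times background in baseline mice. It was higher by 0.32 in quercetin against baseline (limma adjusted p = 0.00601) and differed by 0.18 in control (adjusted p = 0.123). Of the erythroid regulators, Zfpm1, a GATA1 cofactor also used in other tissues, was higher by 0.42 and 0.32, whereas Klf1, an activator of the adult beta globin gene, had -0.40 in control against baseline (limma adjusted p = 0.000591) and -0.23 in quercetin against baseline (adjusted p = 0.131). The membrane genes split. Icam4 was higher in both groups (0.27 and 0.28), but its probe was dim. Its mean Cy5 signal was 2.15, 3.07 and 2.99 times background in the baseline, control and quercetin groups. Gypc, which encodes glycophorin C, had -0.23 in control (limma adjusted p = 0.0286) and -0.13 in quercetin-fed mice (adjusted p = 0.263).

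In heme synthesis, Uros had -0.37 and -0.34, both called. Alad rose by 0.16 and Slc25a37, a mitochondrial iron importer, by 0.29 in quercetin against baseline. Alas1, the liver's own form of the Alas enzyme, was singled out after its values were seen: it had the largest difference of the list in quercetin against control, 1.17 (SE 0.33, limma adjusted p = 0.0584), and was not called in any comparison. Of the late erythroid genes, Car1, a red cell carbonic anhydrase, had -0.38 and -0.36, and Mkrn1 had -0.29 and -0.32 in control and quercetin against baseline, all called.

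Among the list genes, Hba-a2 and Hbb-y passed the threshold for varying with Hba-a1 from mouse to mouse. The Hba-a1 probe also lists an Hba-a2 accession, so the 2 probes can read the same alpha globin transcripts. The Hba-a2 result is therefore no independent evidence. Over 92 non-member genes of 14 lists, r with Hba-a1 was tested by 100000 permutations within groups, two-sided and adjusted over the 92 genes. Hba-a2 had r = 0.993 (rho 0.98, p = 1e-05, the smallest that these permutations can give, adjusted p = 0.00092), and 0.983 without the 2 mice farthest from the median, with group means taken anew (permutation adjusted p = 0.00092). Hbb-y had r = 0.695 (rho 0.634, permutation p = 2e-05, adjusted p = 0.00092). It no longer passed without those 2 mice (r = 0.559, permutation adjusted p = 0.0842), with background-corrected scanner ratios (r = 0.462, adjusted p = 0.268) or with Cy5 alone (r = 0.429, adjusted p = 0.222), whereas Hba-a2 passed in each. The other 90 genes did not pass, Car1 (r = -0.401, permutation p = 0.016, adjusted p = 0.492) and the apolipoprotein gene Apob (r = 0.421, permutation p = 0.0241, adjusted p = 0.554) being the only further ones with an unadjusted p under 0.05. The median r was -0.02 for heme synthesis, 0.04 for the membrane genes and 0.05 for the transcription factors.

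**Figure D5:**
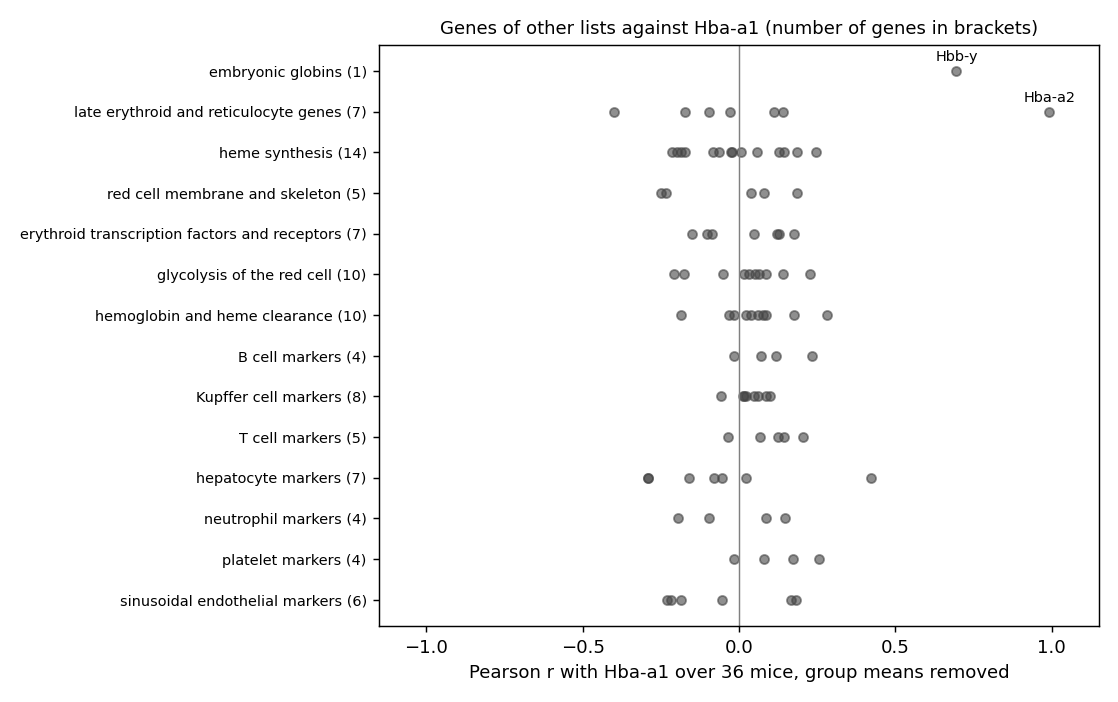
Pearson r with Hba-a1 over 36 mice, group means removed, for each of 92 genes (points) in 14 lists, with the number of genes of each list in brackets. Hba-a2 (0.993) and Hbb-y (0.695), named in the plot, lie apart, and all other genes lie between -0.40 and 0.42.

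No marker of another blood cell passed this threshold. The neutrophil, platelet, B cell and T cell lists, with 4, 4, 4 and 5 genes in the table, had a median r with Hba-a1 of -0.00397, 0.126, 0.0958 and 0.125 over 17 genes. Some of them differed between groups. Of the 4 neutrophil genes, 1 was called higher in control and 2 in quercetin against baseline, where 10.9% and 6.62% of all probes were. None was called lower. There were 2 and 3 positive differences, and the lowest were -0.23 and -0.18. The neutrophil gene S100a9 was higher than baseline by 0.72 in both groups (limma adjusted p = 0.00471 and 0.00273) and S100a8 by 0.39 in the quercetin group (adjusted p = 0.0103), with r of -0.09 and -0.20 to Hba-a1. The mean level of the 4 neutrophil genes ran from 7.05 to 7.62 in baseline, 6.97 to 7.71 in control and 6.87 to 8.04 in quercetin-fed mice. Ms4a1, a B cell gene, was higher by 0.34 and 0.46. It was the single call of the 4 B cell genes in each comparison, where 10.9% and 6.62% of all probes were called higher. Of these 4 genes, 2 had positive differences in control and 4 in quercetin against baseline, with medians of 0.08 and 0.19. The platelet genes Pf4 and Ppbp were not called in any comparison, with differences from baseline of 0.23 and 0.02 in control and 0.08 and 0.09 in quercetin-fed mice. The methods give blood collection before killing for the control and quercetin groups, and no perfusion of the liver is described in the sources used here. The amount of blood left in the livers was not measured, and its part in the globin differences was not tested.

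Of 10 genes that clear hemoglobin and heme, 3 were called higher in control, where 10.9% of all probes were, and 2 in quercetin against baseline, where 6.62% were, and none lower. Cd163, the macrophage receptor for hemoglobin bound to haptoglobin, was higher by 0.53 in control and 0.61 in quercetin against baseline (limma adjusted p = 0.00183 and 0.000416). Blvrb, a biliverdin reductase, was higher by 0.32 and 0.42 (adjusted p = 0.000424 and 1.27e-05), and Hmox1, which opens the heme ring, by 0.35 in control (adjusted p = 0.0177) with 0.26 in quercetin (adjusted p = 0.0505). Their r with Hba-a1 was 0.08, -0.02 and 0.09. All 8 Kupffer cell markers had positive differences from baseline, with a median of 0.29 in control and 0.28 in quercetin-fed mice. None of these markers was called, where 21.3% and 11.9% of all probes were.

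The livers carried strong hepatocyte signals in every group. Of 7 hepatocyte markers, 5 had positive differences in control and 4 in quercetin against baseline, with medians of 0.06 and 0.02. Of these markers 1 and 2 were called, all lower, where 10.4% and 5.3% of all probes were called lower. Alb differed by 0.03 and 0.02 from baseline and was not called, Ttr had -0.21 (adjusted p = 0.1) in control and -0.33 (adjusted p = 0.0377) in quercetin, and Cps1, a urea cycle enzyme, had -0.32 and -0.45, both called by limma. In the glycolysis list Hk1 was higher by 0.27 in control and Pgk1 had -0.25 in quercetin against baseline, the only 2 calls among 10 genes in either comparison, where 21.3% and 11.9% of all probes were called.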

How the data were processed

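Liver RNA of 36 mice was hybridized to 2-colour Agilent arrays, and samples were grouped by their descriptions. The scanner files deposited by the authors hold intensity values per spot and channel (Agilent Feature Extraction 10.5.1.1, per the submitters' processing notes). The authors' table holds log2 values of Cy5 normalized against Cy3 for 23256 spots of 21781 probes that they took as expressed. Set against the scanner files, it equals the log2 ratio of the uncorrected median signals apart from a constant per array and per spot, and every array has the median 8.9613. Array files give positions in build mm8.

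Spots of a probe were averaged. Each pair of groups was fitted with limma (24 arrays, lmFit and eBayes, two-sided, Benjamini-Hochberg over 21781 probes, adjusted p under 0.05), in place of the Student's test of the methods, which was run as an alternative. Gene lists use the brightest probe of a gene. Members and lists were chosen with earlier results of these data known. Named genes are the members, the list genes called or varying with Hba-a1, S100a8, S100a9, Pf4, Ppbp, Alb, Ttr, and the 10 genes most like and 5 most opposed to Hba-a1. Genes named beyond these, whose values had been seen, are Alas1, Apob, Rhag and Ahsp. P-values measure the spread between mice, and the number of arrays limits the precision. The fit was tested on simulated data.

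Alternatives changed the background correction (normexp, offset 50), the normalization, the filter on dim probes (2 or 4 times background), the test, the arrays in the fit, and slide or replicate number as a block. Leaving out each mouse was added after seeing the data. Software was R 4.3.3, limma 3.58.1, statmod 1.5.0, data.table (1.17.8), Python 3.11.15 and matplotlib 3.10.9.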

Additional observations from a re-analysis of the deposited data

How the results depend on the processing

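The number of member probes called was 0 in quercetin against control under all 13 alternatives, 5 to 7 in control against baseline (main 5) and 5 to 9 in quercetin against baseline (main 9). The 5 arose with median centring of the scanner ratios, which moved the median of all probes in control against baseline to 0.12 and raised the share of higher calls there from 51.3% to 88.6%. Other settings moved this share by over 10 points too: with median centring it was 26.1% in quercetin against control (main 63.4%), with a signal over 4 times background 50% there and 65.1% in control against baseline, with slide as a fixed block 73.8% in quercetin against control. In quercetin against baseline (main 55.5%) it was 43.3% without background correction, 44.7% with processed signals and 38.6% with Cy5 alone. Hba-a1 and Hbb-b1 A_51_P374476, A_52_P260346 and A_52_P213909 kept both calls against baseline under all 13 alternatives, Hba-a1 with 0.76 to 1.06 and 1.09 to 1.32. Hbb-b1 A_51_P374468 passed in control against baseline under 5 of 13 and Bpgm A_51_P108408 under 6 of 12. Bpgm lost its calls in quercetin against baseline on both probes with median centring and on A_51_P108408 with Cy5 alone. Slc4a1 fell below the filter on dim probes in 6 settings. Bpgm A_51_P108408 reversed in quercetin against control, uncalled throughout, to -0.029 with scanner signals (with and without the filter), -0.10 with median centring, -0.011 without background correction and -0.021 with processed signals.

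The count of called genes of the erythroid lists was 2 (control against baseline, main 8) and 1 (quercetin against baseline, main 9) with median centring, 5 and 1 with Cy5 alone, and 5 in control against baseline with a signal over 4 times background. In quercetin against control it was 1 with quantile normalization and 1 with all 36 arrays in the fit. With each mouse left out, member calls ranged from 0 to 0, 5 to 6 and 9 to 9, and list calls from 0 to 1, 7 to 9 and 7 to 9, in the order quercetin against control, control against baseline, quercetin against baseline. The single list call appeared without control replicate 4, 8 or 11 or without quercetin replicate 7. The median r of the globin pairs was 0.863 without the 2 farthest mice. That of Bpgm with Hba-a1 (main 0.502) was 0.572 with slide means removed, 0.355 without the 2 farthest mice and 0.403 with Cy5 alone. The number of list genes varying with Hba-a1 was 1 in place of 2 without the 2 farthest mice, with scanner ratios and with Cy5 alone. Causes were not tested.

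Replicate numbers are shared by the groups but did not pair the mice: residuals of same-numbered mice correlated above 0.1 in 3, 4 and 4 of 12 pairs, with medians of -0.01, 0.06 and 0.03. With the replicate block 0, 6 and 9 member probes were called, and Hbb-b1 A_51_P374468 in control against baseline (0.60, limma adjusted p = 0.0232) was the gain.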

Other observations

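Beyond Hba-a2 (r = 0.993) and Hbb-y (0.695), the genes of the table most like Hba-a1 over 36 mice, after removal of group means, were Ptp4a3 (r = 0.671), Dus1l (0.628), Fchsd1 (0.615), Senp7 (0.614), Pold1 (0.582), Myo1e (0.565), Fibp (0.557) and Yap1 (0.552). The r of Ptp4a3 was 0.385 and that of Senp7 0.297 without control replicates 8 and 12, while Fchsd1 kept 0.615 and Pold1 0.565. The most opposed genes were Mterf3 (-0.698), Swt1 (-0.604), Mak16 (-0.550), Ppil4 (-0.537) and Zfp345 (-0.532). These are the extremes of 21772 probes and were not tested.

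Dus1l was higher than baseline by 0.31 in control and 0.48 in quercetin-fed mice (limma adjusted p = 0.0219 and 0.000624), and Pold1 by 0.27 and 0.28 (limma adjusted p = 0.001 and 0.00385). Myo1e, although positively correlated with Hba-a1 within groups, had -0.32 in control against baseline (limma adjusted p = 0.0363).

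Hba-a1 showed little relation to the brightness of its array. Over 36 arrays, r was -0.07 with the percentage of Cy5 probes well above background and -0.12 with the log2 median Cy5 signal over background. With the Cy3 signal of the same probe it was -0.19. On Hba-a1, the highest baseline mouse and the 2 highest mice of each other group lay at array position 1 of their slides. These were baseline replicate 2, control replicates 8 and 12 and quercetin replicates 7 and 10. Mice almost as high lay at other positions. Baseline replicate 8 (position 4) had 14.593 against 14.610 in baseline replicate 2. Quercetin replicate 8 (position 2) had 16.020 against 16.030 in quercetin replicate 7. Control replicates 1 and 5, quercetin replicate 3 and baseline replicate 9 lay there too, below the Hba-a1 medians of their groups. An effect of array position was not tested.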
